A study of Homo sapiens with 2 samples.

Results

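Serine synthesis and one-carbon folate metabolism were followed through 9 genes: PHGDH, PSAT1, PSPH, SHMT1, SHMT2, MTHFD1, MTHFD2, MTHFD1L and GLDC. Every probe set annotated to 1 of these genes alone was taken, which gave 18 probe sets of the 41091 that carry a single gene symbol, and 9 of the 19775 genes those cover. The values come from 2 Affymetrix arrays of DLD-1, a human colon carcinoma cell line with a mutated p53 of its own. Both cultures were stably transfected with wild-type p53 under tet-off control, so that the transgene is silent while tetracycline is present. The p53 on array came from cells left 9 h without tetracycline, and the p53 off array from cells kept in it. Each condition had 1 array and no replicate, so no test could be made and the ratios are those of these 2 arrays only. The labels do not say whether the transfected line was 1 clone, and the p53 transcript was not analysed here, so the conditions are as labelled.

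Cells build serine from a glycolytic intermediate, phosphoglycerate, by the successive action of PHGDH, PSAT1 and PSPH. Serine hydroxymethyltransferases then split serine into glycine and a one-carbon unit bound to folate, SHMT2 in the mitochondrion and SHMT1 in the cytosol. In the mitochondrion MTHFD2 and MTHFD1L turn that unit into formate, which MTHFD1 takes up again in the cytosol for purine and thymidylate synthesis. GLDC, part of the glycine cleavage system of mitochondria, feeds the same folate pool from glycine. In human cancer cells several of these genes are known targets of the transcription factor ATF4, and p53 has been described as a repressor of PHGDH in melanoma cells.

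The starts of 4 of these genes are shown first, as the bases just upstream of the annotated start in RefSeq (GRCh38.p14, plus strand, 5′ to 3′). Capitals mark CCAAT, the box bound by NF-Y, and CACGTG, the E-box bound by MYC and its relatives. PSAT1 and MTHFD2 are shown because the signals of their brightest probe sets were the highest above p53 off, PHGDH as the entry enzyme, and MTHFD1 for its E-box.
PSAT1, chr9:78296995-78297124: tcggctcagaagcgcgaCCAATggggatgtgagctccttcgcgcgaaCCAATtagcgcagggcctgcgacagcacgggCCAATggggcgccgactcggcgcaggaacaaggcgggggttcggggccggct
MTHFD2, chr2:74198415-74198614: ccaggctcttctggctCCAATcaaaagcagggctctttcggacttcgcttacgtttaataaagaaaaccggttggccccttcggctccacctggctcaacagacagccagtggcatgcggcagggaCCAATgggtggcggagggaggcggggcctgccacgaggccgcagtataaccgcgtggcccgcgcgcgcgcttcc
PHGDH, chr1:119711834-119711933: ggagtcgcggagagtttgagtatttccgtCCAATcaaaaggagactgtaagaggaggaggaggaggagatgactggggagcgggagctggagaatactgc
MTHFD1, chr14:64388293-64388352: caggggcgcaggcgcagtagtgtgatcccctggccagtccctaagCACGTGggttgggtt

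RefSeq promoter windows, from 250 bases before to 50 after a start, were matched for 7 of the 9 genes: PHGDH, PSAT1, SHMT1, MTHFD1, MTHFD2, MTHFD1L and GLDC. CCAAT, searched on both strands, lay in at least 1 window of all 7, against 34.6% of 35116 windows and 39.7% of 27305 genes in the table. PSAT1 held 3 copies, with first bases 113, 83 and 52 bases upstream of the start, and MTHFD2 held 2. CACGTG lay in the windows of MTHFD1 and MTHFD1L, against 8.77% of all genes. TGATGNAA, the core of an ATF4 element, was found in MTHFD1L alone of the 7, against 4.46% of all genes. A match to these letters describes the sequence and shows no binding.

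Signals were read against a floor of 112.4, the median of all signals on both arrays that were not controls. A signal under the floor was set to it before a ratio was taken. The ratio is then a bound if 1 signal was under the floor, and none was formed if both were. Of the 18 probe sets, 11 were above the floor on both arrays, 5 on only 1, and 2 on neither. The signals were mostly near equal on the arrays: of the 11 probe sets with both signals above the floor, 8 (72.7%) differed by less than 1.5-fold, while 1 was higher with p53 on by 1.5-fold or more and 2 were lower by that much. Over the 19023 probe sets of the arrays with both signals above the floor, the background was 47.5% under 1.5-fold, 23.2% higher and 29.3% lower. The differences past 1.5-fold were those of 1 probe set of PSAT1 and 2 of SHMT2, and in both genes another probe set read nearly the same on the 2 arrays. In RNA from a whole culture, fewer cells that use a gene and less RNA per cell cannot be told apart.

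**Figure D1:**
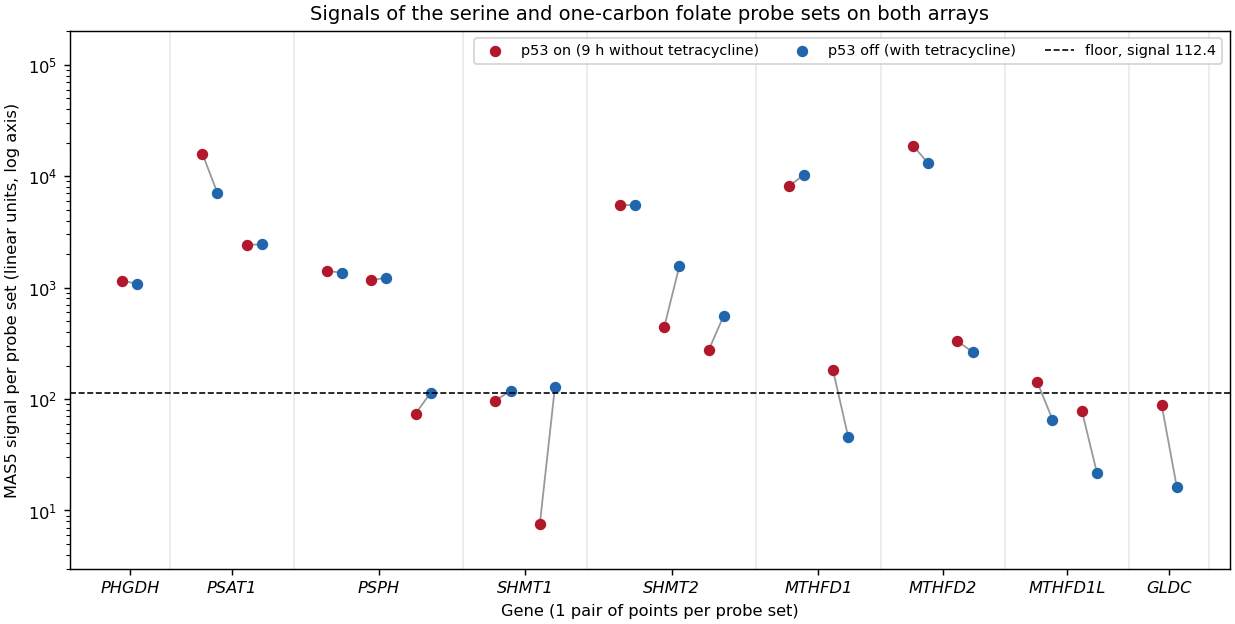
MAS5 signal on a log axis for each of the 18 probe sets, with p53 on (red, left) joined to p53 off (blue, right) and the floor dashed. PHGDH, the 2 PSPH probe sets above the floor and the brightest probe set of SHMT2 run nearly level, while 1 PSAT1 pair lies higher with p53 on and 2 SHMT2 pairs lie lower.

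The serine synthesis enzymes come first in the pathway. PHGDH, which takes the first step from phosphoglycerate, had 1 probe set annotated to it alone. Its signal was 1154 with p53 on, against 1081 with p53 off. The arrays hardly differed for it, with a log2 ratio of 0.095, and 90.5% of all measured probe sets had a ratio at least as far from 0. Another probe set names PHGDH together with further genes and was left out.

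PSAT1, the aminotransferase of the second step, had a signal of 15988 with p53 on, against 7079.85 with p53 off, on probe set 223062_s_at. That is 2.26-fold higher, a log2 ratio of 1.18, and 20.2% of measured probe sets differed by as much. The other PSAT1 probe set, 220892_s_at, read 2428 with p53 on, against 2441 with p53 off, a log2 ratio of -0.0078. The names of both end in _s_at, which marks probes shared by several transcripts. The 2 probe sets of PSAT1 thus differed from each other by 1.18 on the log2 scale, and among genes with as many measured probe sets 18.6% had a range at least as wide.

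PSPH, the phosphatase that releases serine, was read by 3 probe sets, and the 2 above the floor on both arrays gave near equal signals. Probe set 205048_s_at had 1419 with p53 on, against 1358 with p53 off. Probe set 205194_at had 1162 with p53 on, against 1229 with p53 off. The log2 ratios were 0.064 and -0.081, of opposite sign and both small. The third, 244819_x_at, read 74.0 with p53 on, against 113.8 with p53 off, and was at least 1.01-fold lower. Its p53 on signal was under the floor and its p53 off signal just above it, and without the floor its log2 ratio was -0.61. PSPH has closely related copies in the genome, and the _s_at and _x_at probe sets may read them too.

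The hydroxymethyltransferases join serine to the folate cycle. SHMT2, the mitochondrial enzyme, had 3 measured probe sets that did not read alike. On 214096_s_at, the brightest, the signal was 5494 with p53 on, against 5519 with p53 off, a log2 ratio of -0.0066. On 214437_s_at it was 443.9 with p53 on, against 1562 with p53 off. On 214095_at it was 274.9 with p53 on, against 561.6 with p53 off. Probe set 214437_s_at was thus 3.52-fold lower with p53 on and 214095_at 2.04-fold lower, or -1.81 and -1.03 on the log2 scale. The range of 1.81 between the probe sets of SHMT2 was reached by 12.7% of the 1778 genes with 3 measured probe sets.

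The arrays differ in how signal is spread along a transcript, which may bear on any ratio given here, also for genes with 1 probe set. The 3' control probe set of beta-actin was 7.29 times as bright as its 5' one on the p53 on array and 1.37 times on the p53 off array, and for GAPDH these values were 1.77 and 0.97. Where along the SHMT2 and PSAT1 transcripts each probe set lies was not analysed here. The part of this difference in the ratios of these or other genes was not tested.

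SHMT1, the cytosolic enzyme, was close to the floor on the probe sets annotated to it alone. Probe set 217304_at had 96.9 with p53 on, against 118.9 with p53 off, at least 1.06-fold lower. Probe set 231701_s_at had 7.62 with p53 on, against 129.6 with p53 off, at least 1.15-fold lower. Both p53 on signals lay under the floor and both p53 off signals just above it, so the size of the difference in SHMT1 could not be read. A further 2 probe sets name SHMT1 together with another gene and were left out by the rule for members. The dim signals here thus do not show that SHMT1 itself was barely expressed.

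**Figure D2:**
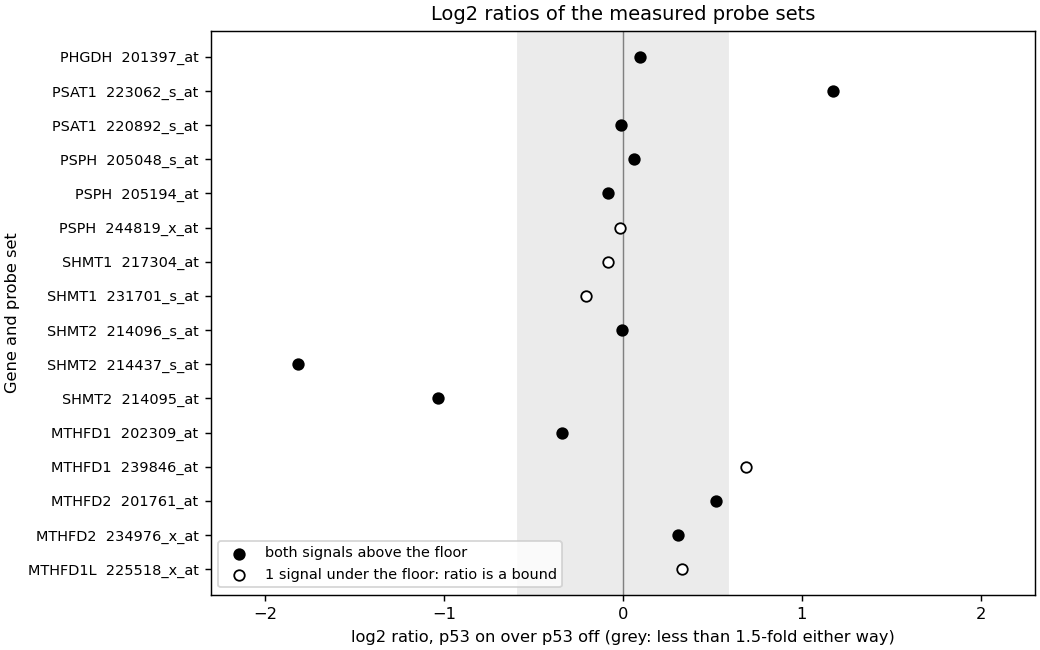
Log2 ratio of p53 on over p53 off for the 16 measured probe sets, with filled points for 2 signals above the floor, open points for bounds, and grey for less than 1.5-fold either way. The ratios run from -1.81 for an SHMT2 probe set to 1.18 for a PSAT1 probe set, and 12 of the 16 points lie within the grey band.

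Of the folate enzymes downstream, MTHFD2, the mitochondrial methylenetetrahydrofolate dehydrogenase, had the higher signal with p53 on with both of its probe sets, without reaching 1.5-fold. Probe set 201761_at had 18815 with p53 on, against 13094 with p53 off, a log2 ratio of 0.52 or 1.44-fold. Probe set 234976_x_at had 329.6 with p53 on, against 265.8 with p53 off, a log2 ratio of 0.31. Among all measured probe sets 54.7% differed by at least as much as the first, so that its ratio is an ordinary one for these arrays.

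MTHFD1, the cytosolic enzyme that joins formate to folate and reduces the product, had 8102 with p53 on, against 10261 with p53 off, on probe set 202309_at. Its log2 ratio was -0.34, or 1.27-fold lower. Its second probe set, 239846_at, had 180.8 with p53 on, against 45.9 with p53 off, and was at least 1.61-fold higher. The probe sets of MTHFD1 thus went opposite ways, and the one past 1.5-fold had its p53 off signal under the floor.

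MTHFD1L, the mitochondrial formate-releasing synthetase, and GLDC, the glycine decarboxylase, were dim. MTHFD1L probe set 225518_x_at had 141.4 with p53 on, against 65.5 with p53 off, at least 1.26-fold higher. Its probe set 1561125_at had 78.8 with p53 on, against 21.9 with p53 off, both under the floor. For MTHFD1L another 2 probe sets name further genes and were left out. GLDC had 87.6 with p53 on, against 16.1 with p53 off, on its only probe set, and no ratio was formed. These signals were all higher with p53 on, but all under the floor or just above it. The median signal of all probe sets that were not controls was also higher, 121.8 with p53 on, against 103.0 with p53 off. At or above the floor were 52.2% of them with p53 on, against 47.8% with p53 off.

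Over the 16 measured probe sets, bounds included, 2 passed 1.5-fold upward with p53 on and 2 downward, against backgrounds of 24.6% and 25.7% of 25962 measured probe sets. At 2-fold the counts were 1 higher and 2 lower, against 14.0% and 13.0%. The median log2 ratio was -0.0072, against -0.0097 over all measured probe sets. With each gene represented by its brightest probe set, 8 genes were measured. Of these PSAT1 alone passed 1.5-fold upward and none passed it downward, against 25.9% of 13915 genes in each direction. This call turned with the choice of probe set: by the mean of a gene's probe sets PSAT1 was 0.584, just inside the threshold, and SHMT2 was lower at -0.95. Without probe sets marked for shared sequence PSAT1 had none left and SHMT2 was lower at -1.03. The median over these 8 genes was 0.079, against 0.0035 over all measured genes. A gene's other measured probe sets lay a median of 0.56 from its brightest one on the log2 scale over the whole array. PSAT1, SHMT2 and MTHFD1 had larger gaps than that between probe sets, and MTHFD2 a smaller one, as did the 2 PSPH probe sets above the floor. SHMT1 gave only bounds.

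The deposited scale sets each array to a common mean signal. By contrast, the 18 spike-in probe sets (RNA added at hybridization) had a median p53 on signal 1.89 times that on the p53 off array. Scaling to them would put the median gene at -0.80, the 223062_s_at ratio of PSAT1 0.26 and the 201761_at ratio of MTHFD2 -0.40. Higher and lower thus mean relative to the typical gene of these arrays. The markers of the labelled cell type were present: 8 of 10 colon epithelial markers were measured, and over all 10 the median signals were 11592 with p53 on and 6887 with p53 off. On both arrays 7 of these 10 were above the floor. Of 8 leukocyte, 8 fibroblast and 7 endothelial markers on the arrays, 4, 5 and 4 were measured. Only 1 each was above the floor on both arrays. The summed signals of the leukocyte, fibroblast and endothelial markers were 1031, 985.4 and 711.2 with p53 on, against 538.6, 609.1 and 460.4 with p53 off. No signal in the table was 0. The labels name DLD-1 cells for both arrays. The source of the dim signals of GLDC and MTHFD1L was not tested.

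**Figure D3:**
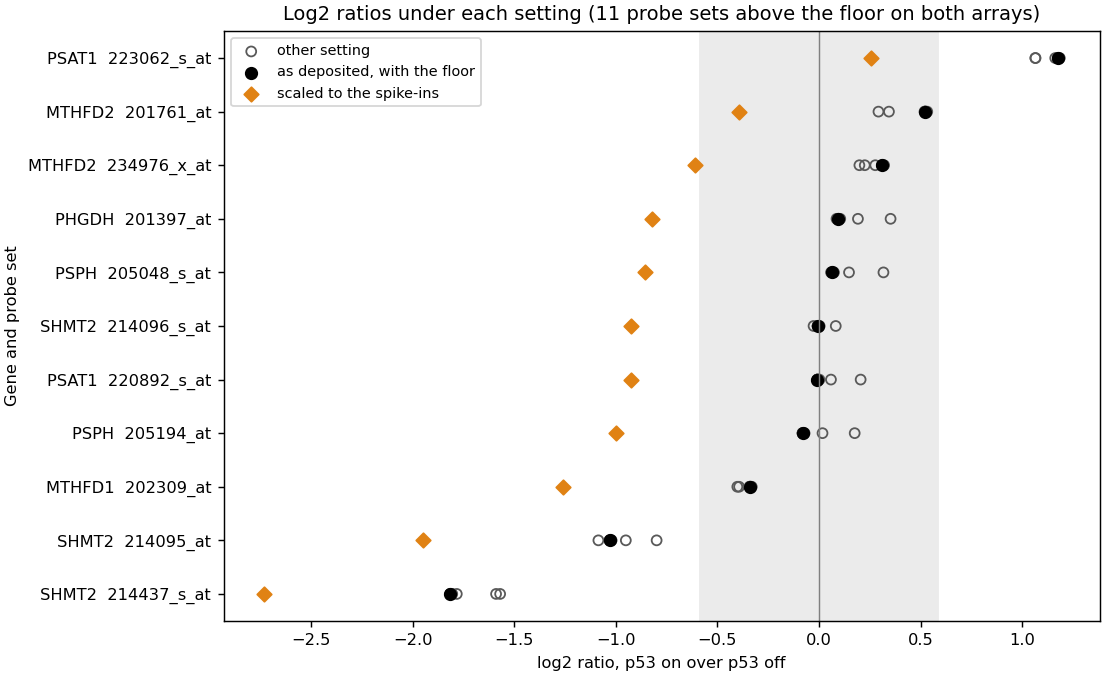
Log2 ratio of p53 on over p53 off for the 11 probe sets above the floor on both arrays, as deposited (black), under the other settings (open circles) and after scaling to the spike-ins (orange diamonds). The order of the probe sets is kept at its ends, with PSAT1 223062_s_at highest and SHMT2 214437_s_at lowest, while the spike-in scaling moves each point to the left.

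Other enzymes and transporters of serine, folate, methionine and purine metabolism were set beside these genes, each by its brightest probe set. Measured values were found for 42 of 51 such genes. With p53 on, 7 of them were higher by 1.5-fold or more, 13 were lower by that much and 22 lay between. The backgrounds are 25.9% higher and 25.9% lower, and the shares here were 16.7% and 31.0%. The median log2 ratio was -0.075.

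In the mitochondrial folate arm 1 of 4 measured genes was lower and none higher. SLC25A32, which carries folate into the mitochondrion, had 1692 with p53 on, against 3391 with p53 off, 2.0-fold lower. In the cytosolic folate arm 1 of 3 was lower and none higher. That gene, ALDH1L1, which oxidises formyl folate, was at least 1.73-fold lower, with 88.9 with p53 on and 194.6 with p53 off, but a dimmer probe set had a log2 ratio of 1.06. TYMS, thymidylate synthase, lay just inside the threshold at 0.56, was named after its value was seen, and had probe sets from -0.59 to 0.56.

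In the glycine cleavage system, GLDC's partners went both ways among 3 measured genes. GCSH, the lipoyl carrier protein, had 10136 with p53 on, against 6033 with p53 off, 1.68-fold higher, and its other probe set had a log2 ratio of 0.14. AMT, the aminomethyltransferase, had 123.2 with p53 on, against 232.8 with p53 off, 1.89-fold lower. Its p53 on signal lay just above the floor, and with a floor at the 60th percentile the AMT log2 ratio was -0.46. With a pseudocount equal to the floor it was -0.55, so AMT lost its call under both. Of 5 measured genes of folate uptake and retention 1 was higher and 2 were lower. SLC19A1, the reduced folate carrier, had 391.3 with p53 on, against 767.0 with p53 off, 1.96-fold lower, with probe sets from -1.08 to -0.042. FPGS, which adds the glutamate tail that keeps folate in the cell, was 1.76-fold lower, while GGH, the hydrolase that removes it, was 1.57-fold higher. After scaling to the spike-ins, GCSH and GGH had log2 ratios of -0.17 and -0.27.

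Genes that move or use serine and glycine were split, with 3 of 11 higher and 3 lower. SLC1A5, a neutral amino acid exchanger, had 846.8 with p53 on, against 2653 with p53 off, 3.13-fold lower. CTH, which makes cysteine from cystathionine, had 164.8 with p53 on, against 436.4 with p53 off, 2.65-fold lower, and its other probe set had a log2 ratio of -0.29. SPTLC2, a subunit of serine palmitoyltransferase, was 1.70-fold lower, with probe sets from -1.27 to 0.14 and -0.51 after loess. CBS, which joins serine to homocysteine, had 247.5 with p53 on, against 85.2 with p53 off, and was at least 2.20-fold higher. SFXN3, a relative of the mitochondrial serine carrier SFXN1, was 2.52-fold higher by its brightest probe set, but its probe sets ran from -0.76 to 1.33 on the log2 scale. SRR, serine racemase, was 1.51-fold higher, with probe sets from -0.22 to 2.25.

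The methionine cycle had 1 of 8 genes higher and 3 lower. MAT2A, which makes the methyl donor S-adenosylmethionine, had 4307 with p53 on, against 7368 with p53 off, 1.71-fold lower, and its other probe set was lower too, at -1.66. Its regulatory subunit gene MAT2B was 1.53-fold lower by the brightest probe set but 0.51 on the log2 scale on the other. MTAP, of methionine salvage, was 1.67-fold lower, with probe sets from -1.30 to 0.30 and -0.53 after loess. AHCYL1, a relative of adenosylhomocysteinase, was 1.77-fold higher, with probe sets from 0.31 to 0.83. Purine synthesis, a main use of one-carbon units, had 1 of 8 higher and 2 lower. PRPS1, which makes the ribose donor, was 2.80-fold lower, but its other probe set, the one not marked for shared sequence, had a log2 ratio of -0.22. GART, which uses formyl folate, was 1.60-fold lower, with probe sets from -1.25 to 0.16 and -0.52 after loess. ADSL, adenylosuccinate lyase, was 1.53-fold higher, with probe sets from -0.11 to 0.62.

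**Figure D4:**
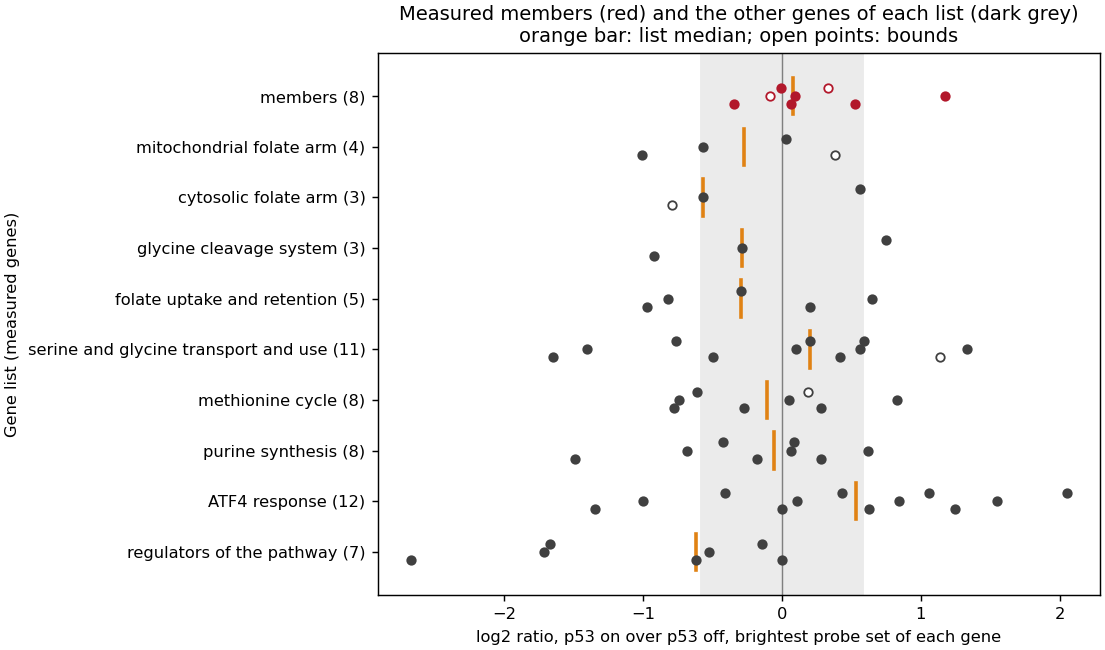
Log2 ratio of p53 on over p53 off by brightest probe set, for the 8 measured members (red) and the other measured genes of each list (dark grey), with list medians as orange bars and bounds as open points. The members gather around 0 apart from PSAT1, and the ATF4 response list reaches farthest to the right.

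ATF4 drives several of the genes followed here, so its own RNA level and its other known targets were read beside them. The arrays read RNA, and ATF4 protein was not measured. ATF4 had 10459 with p53 on, against 10450 with p53 off, a log2 ratio of 0.0013. Of the 12 genes of the ATF4 response, all measured, 6 passed 1.5-fold upward and 2 downward, against the backgrounds of 25.9% each. The median log2 ratio of the list was 0.53, against 0.0035 over all genes. CHAC1, which degrades glutathione, had 1192 with p53 on, against 287.8 with p53 off, 4.14-fold higher. CEBPB, a partner of ATF4, had 9058 with p53 on, against 3101 with p53 off, 2.92-fold higher. NUPR1, a stress-induced chromatin protein, was 2.37-fold higher, and DDIT3, the gene of CHOP, 2.08-fold. SESN2 and VLDLR were 1.79-fold and 1.54-fold higher, but the dimmer SESN2 probe set had a log2 ratio of 0.23. SLC3A2, the heavy chain of amino acid exchangers, was 2.53-fold lower and ATF5, a relative of ATF4, 2.0-fold lower. ASNS, asparagine synthetase and a standard ATF4 target, was level at 0.11, as were PHGDH and the 2 PSPH probe sets above the floor. TRIB3, also of the list, was not higher, with probe sets from -1.69 to -0.41. ATF4, ASNS, TRIB3, SESN2 and VLDLR were named after their values were seen. After scaling to the spike-ins the list median was -0.39, and 2 genes were higher and 5 lower. Over all 14173 genes the median was then -0.80, with 1353 higher and 8313 lower.

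Among 7 genes known to regulate serine synthesis or its flux, 4 passed 1.5-fold downward with p53 on and none upward, against the backgrounds of 25.9% each. Their median was -0.61, against 0.0035 over all measured genes. The list mixes genes that act on the pathway in different directions, so its count and median have no single meaning for the pathway. ATF4 is counted both here and in the ATF4 response. MYC, which activates serine and one-carbon genes, had 1649 with p53 on, against 5388 with p53 off, 3.27-fold lower. KEAP1, which targets NRF2 for degradation, had 306.3 with p53 on, against 1947 with p53 off, 6.36-fold lower. EHMT2, a histone methyltransferase described to keep serine genes active, was 3.17-fold lower by its brightest probe set, though another had a log2 ratio of 1.02. PKM, pyruvate kinase, was 1.53-fold lower. MYC and KEAP1 had 1 probe set each, so these ratios have no second reading. The 3' to 5' difference between the arrays may bear on them, which was not tested.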

How the data were processed

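Total RNA from 2 cultures was measured on 1 Affymetrix array each. The deposited values are MAS5 signals, a linear intensity for each probe set, per the submitters' processing notes. No version or detection call is given in the sources used here. The mean signal after trimming 2% at each end was 500.07 on both arrays, so the authors' values had been scaled to a common target. Gene names are those of GEO's platform annotation, updated through Entrez identifiers to RefSeq (41037 of 41091 matched). Of 54613 probe sets that were not controls, 41091 had 1 symbol, 1801 several and 11721 were unnamed here.

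The log2 ratio is p53 on over p53 off, with signals under the 50th percentile (112.4) set to it. Genes were represented by the probe set with the highest mean signal. With 1 array per condition there is no test, and the number of arrays limits the precision. Counts use 1.5-fold and 2-fold. All members were named, and of each other list the members past 1.5-fold, at most the 6 with the largest ratios; with 2 arrays, likeness between genes was not ranked. The members and lists were chosen with earlier results of these data known. A planned comparison of protein sequences was not made. Other floors, pseudocounts, scalings and probe set choices were tried. Procedures were tested on simulated data. Python 3.11.15, numpy 2.4.6, pandas 2.3.3, statsmodels 0.14.6 and matplotlib 3.10.9 were used.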

Additional observations from a re-analysis of the deposited data

Results flagged for a closer look

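Probe sets outside the gene comparisons carried a signal that differed between the arrays. For beta-actin, the 3' control probe set over the 5' one gave 7.29 on the p53 on array, against 1.37 on the p53 off array. For GAPDH the same quotient was 1.77 with p53 on, against 0.97 with p53 off. Spike-in RNA added at hybridization read a median of 1.89 times as bright with p53 on as with p53 off, and the 18 probe sets ranged between 1.47 and 2.59.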

How the results depend on the processing

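Scaling to the spike-ins left the following: 0 member probe sets were at least 1.5-fold higher with p53 on and 10 lower, 0 member genes higher and 4 lower (median -0.82), 1 of the other enzymes and transporters higher and 30 lower (median -1.09), 2 ATF4 response genes higher and 5 lower (median -0.39), and 7 regulators lower (median -1.53); log2 ratios turned to -0.17 for GCSH, -0.27 for GGH, -0.33 for SRR, -0.092 for AHCYL1, -0.30 for ADSL, -0.079 for SESN2 and -0.29 for VLDLR. This scaling lowers every ratio by the same factor except at the floor. A floor at the 40th percentile gave 4 lower member probe sets and 2 higher member genes, and one at the 60th percentile 1 higher member probe set. With no floor and a pseudocount of 1, member probe sets were 5 higher and 4 lower of 18, because dim probe sets then count. The background was 13552 higher and 12488 lower of 41091. Of 9 member genes 3 were then higher, against 6615 of 19775. A pseudocount equal to the floor gave 2 higher member genes. Quantile normalization and loess (span 0.3) each left 1 higher member probe set. The mean of a gene's probe sets gave 0 higher and 1 lower member genes (SHMT2, -0.95) and 4 higher enzymes and transporters, and turned ALDH1L1 to 0.13. Without probe sets marked for shared sequence, member genes were 0 higher and 1 lower (SHMT2, -1.03), PRPS1 lost its call at -0.22, 3 enzymes and transporters were higher, 3 ATF4 response genes were higher and 0 lower, SFXN3 was -0.76 and MAT2B 0.51. Centring on the median moved none of the counts named here by over 1.5 times. Outside the spike-in scaling, PSAT1 223062_s_at stayed between 1.06 and 1.18, SHMT2 214437_s_at between -1.81 and -1.57, SHMT2 214095_at between -1.09 and -0.80 and MTHFD2 201761_at between 0.29 and 0.53. No paired analysis was possible because each condition has 1 array. Signals near the floor on the probe sets used limit SHMT1, MTHFD1L and GLDC.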
